A study of Mus musculus with 4 samples.

Results

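The transcripts described here encode 36 nucleolar ribosome biogenesis factors, proteins that make ribosomal RNA, modify and cut it, and fold it into the 2 ribosomal subunits. They were chosen by name from the 22266 genes of the expression table, and all 36 had a row and were tested. The nucleolus forms around the ribosomal RNA genes: RNA polymerase I copies these genes into a long precursor, box C/D and box H/ACA small nucleolar ribonucleoproteins (snoRNPs) methylate and pseudouridylate it, and assembly factors process it into the small and large subunits. Fast-growing cells such as mouse embryonic stem cells keep this programme at a high level, and nucleolar size and output are known to follow growth and nutrient signals.

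Poly(A) RNA was sequenced from female mouse embryonic stem cells (line PGK12.1) grown on gelatin in serum with leukemia inhibitory factor, whose Cbx2 alleles are flanked by loxP sites and tagged with HaloTag (CBX2fl/fl-HaloTag). Cbx2 encodes a Polycomb protein that reads methylated histone tails and helps to keep developmental genes off. The controls (EtOH, day 0, n = 2) are labelled Wildtype but carry the same floxed, tagged alleles. The treated libraries (OHT, day 2, n = 2) are labelled Knockout and come from cells given 1.0 µM 4-hydroxytamoxifen (4-OHT) over 48 hours. The labels name no recombinase and do not say whether the line is a clone. Effects of 4-OHT, of culture time and of the loss of Cbx2 cannot be told apart, since none of the libraries used here pairs the drug with intact Cbx2. The labels do not tie replicates to separate cultures, and the p-values here reflect just the variation among these libraries, possibly technical.

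All values are the authors' TPM, a length-corrected share of all transcripts. TPM hides sequencing depth, which is unknown here. In such bulk values, fewer cells that express a gene and less of its RNA per cell cannot be told apart. Cbx2 itself read 2.29 and 2.71 TPM in the controls, against 0.749 and 1.14 TPM in the treated libraries, the direction the labels give. All 10 embryonic stem cell markers listed (Pou5f1, Sox2, Nanog, Zfp42, Esrrb, Klf4, Tdgf1, Dppa5a, Utf1 and Dppa4) stood at or above 10 TPM in every library, and their sums were 9846.3 and 9753.3 TPM (EtOH) and 12723.6 and 11431.8 TPM (OHT). Most of that gap lay in Dppa5a (4733.1 and 4612.0 against 7089.2 and 5622.7 TPM), while Utf1 was lower (397 and 373 against 335 and 318 TPM) and the Sox2 values overlapped. In 7 of the 10 each treated library was above each control (23.1% of all genes tested), and in 1, Utf1, each was below (19.4%). Among the 7 was Pou5f1 (1855.9 and 1861.9 against 2229.0 and 2105.8 TPM). The part of that difference in the nucleolar values was not tested. The 10 fibroblast and feeder markers summed to 10.2 and 10.1 TPM in the controls, against 12.6 and 19 TPM in the treated libraries. Most of each sum was Thy1 (6.41 and 5.43 against 7.64 and 10.9 TPM). In every library 7 of the 10 stayed under 1 TPM, with Postn at 0 throughout. The 10 markers of differentiated germ layers summed to between 15.9 and 19.5 TPM in each library, with Pax6 lower (7.56 and 7.33 against 3.17 and 3.6 TPM) and Sox1 higher (3.1 and 2.62 against 5.28 and 6.77 TPM) after 4-OHT. The OHT libraries lay further apart than the EtOH libraries: over the 12029 genes tested, the SD of the log2 difference within the pair was 0.35 with OHT and 0.18 with EtOH.

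The nucleolar factors were abundant: 34 of the 36 had a mean over 50 TPM, and all lay at or above percentile 71.6 of the tested genes by level. Npm1, which encodes nucleophosmin, the main scaffold protein of the outer nucleolus, stood first at 6646.7 and 6699.9 TPM in the controls, against 5967.4 and 5896.2 TPM in the treated libraries. It was followed by Nop58 at a mean of 1172.8 TPM, then by Ncl, Nop56 and Fbl. At the other end stood Rrp12 and Utp15, a factor of pre-ribosome export and a subunit that joins early to the precursor, with Utp15 at a mean of 40.2 TPM. Summed, the 36 transcripts took 1.51% of all TPM in both EtOH libraries and 1.34% and 1.37% in the OHT libraries.

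**Figure D1:**
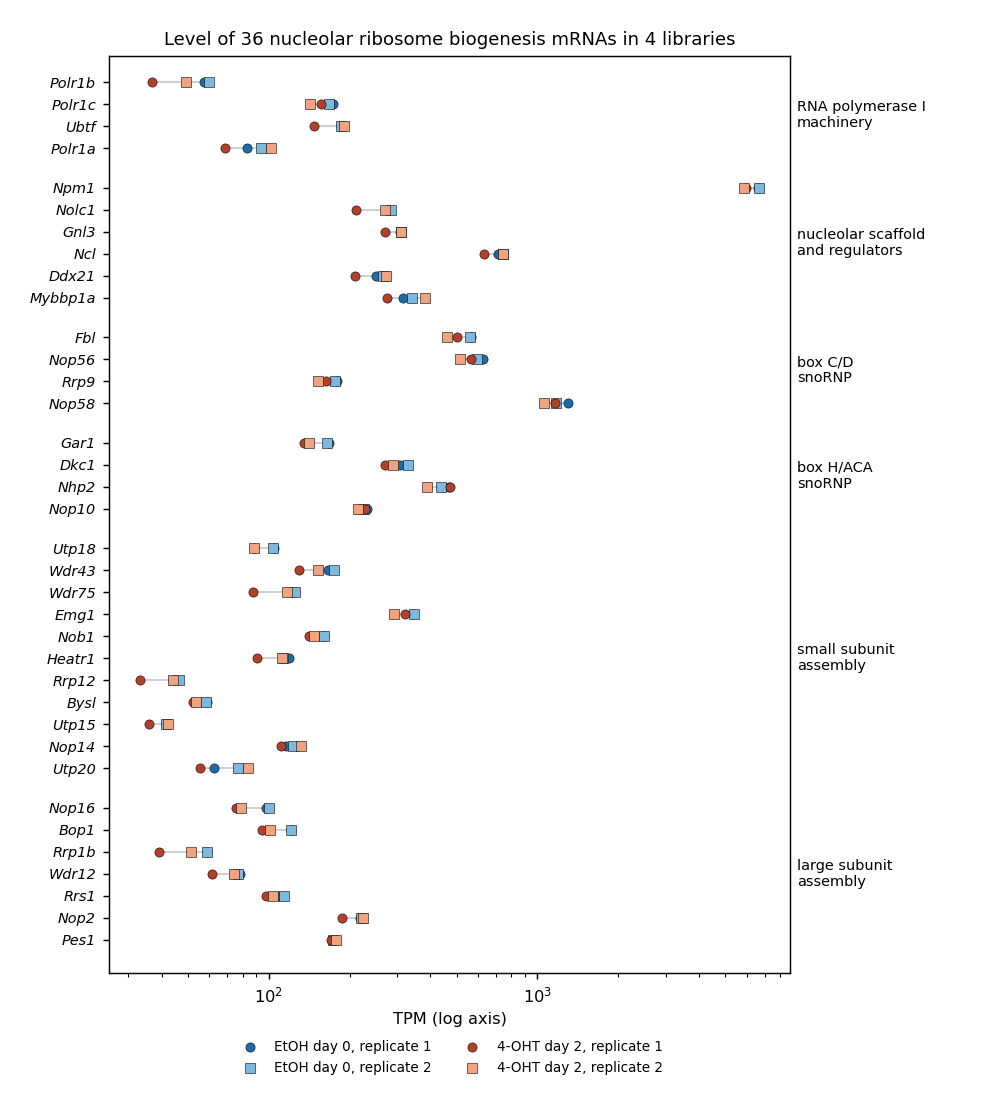
Level of each of the 36 transcripts in TPM (log axis) in the 4 libraries, grouped by role, with circles for replicate 1 and squares for replicate 2. The genes span the range from Utp15 at a mean of 40.2 TPM to Npm1 at 6302.5 TPM, and the first OHT library (dark red circles) stands apart to the left for genes such as Polr1b, Wdr75 and Rrp12.

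Most of the nucleolar transcripts were slightly lower after 4-OHT, and none passed the test across all genes. The log2 fold change on the log2(TPM + 1) scale was below 0 for 35 of the 36, against 46% of all 12029 genes tested, with Nop14 the exception. For 22 of the 36, each treated library was below each control (19.4% of all genes tested), and for 0 each was above (23.1%). The median log2 fold change was -0.17, beside 0.02 for all genes tested, and the summed TPM of the 36 was 10.3% lower with OHT.

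By limma with Benjamini-Hochberg adjustment over all genes, 0 of the 36 had an adjusted p under 0.05 (0.0416% of genes tested in either direction, 0.0333% lower and 0.00831% higher). At an unadjusted p under 0.05 stood 7, all lower (4.46% of genes tested were lower at that level, 6.02% higher): Nop16, Bop1, Gar1, Polr1b, Fbl, Rrp1b and Utp18. Without EtOH replicate 1, or without EtOH replicate 2, the median log2 fold change of the 36 was -0.17, beside -0.00 and 0.04 for all genes tested. Without OHT replicate 1 the median log2 fold change of the 36 was -0.11, beside 0.14 for all genes tested. Without OHT replicate 2 it was -0.23, beside -0.09 for all genes tested. Highly expressed genes as a whole leaned lower too. Among the 3418 genes whose mean reached that of Utp15, a background chosen after seeing the data, 59.9% were below 0, 29.3% had both treated libraries below both controls (15.2% above), 7.28% were lower and 3.8% higher at an unadjusted p under 0.05, and the median was -0.04. Under quantile normalization 31 of the 36 were below 0, against 50.2% of all genes. How far the level of these genes bears on their share below 0 was not tested.

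The size of the difference was small for nearly all of them. The ratio of group means was more than 20% down for 3 genes, Polr1b (26.6%), Rrp1b (23.6%) and Nop16 (21.8%), and more than 10% down for 21. The gap between the EtOH libraries was 2.14% of their mean for the median gene of the 36, and the gap between the OHT libraries was 14.5%.

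**Figure D2:**
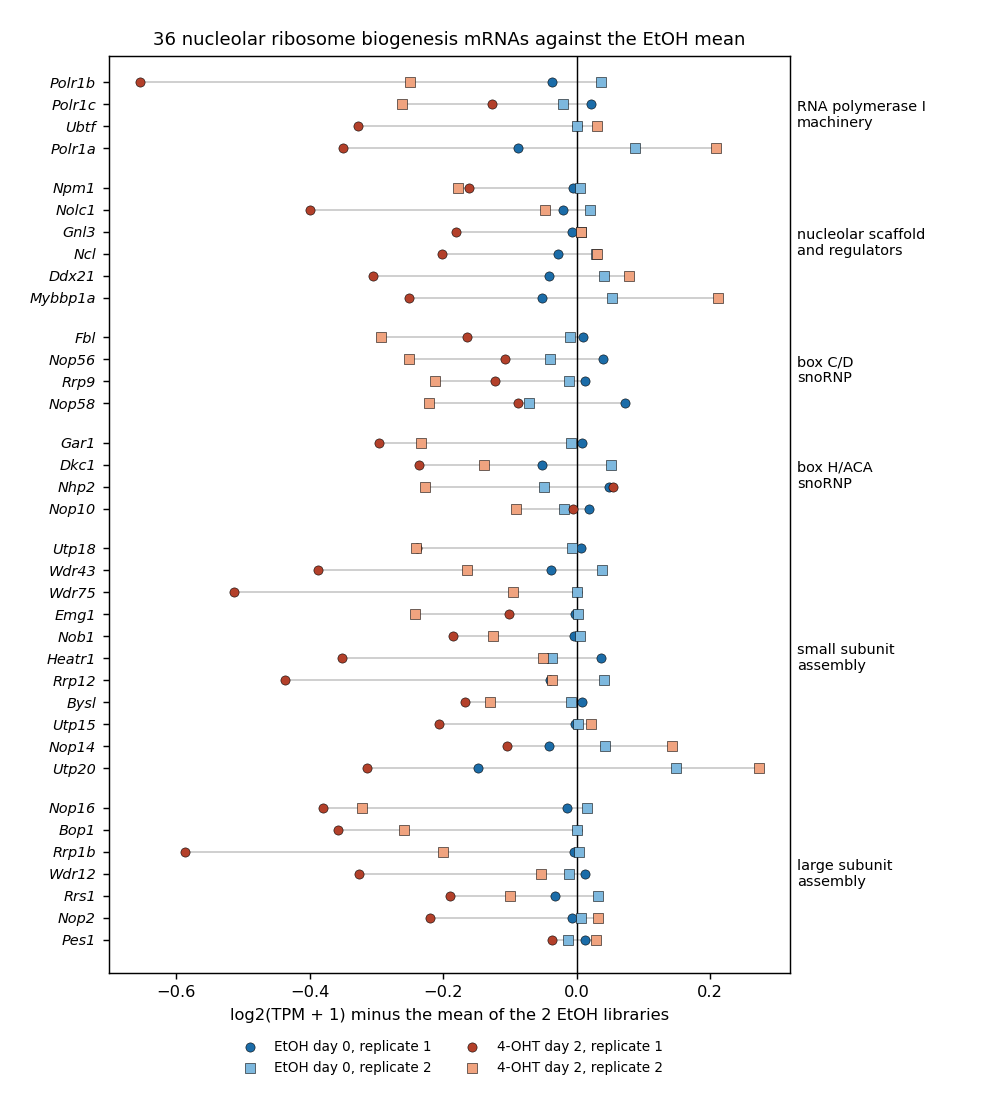
Each transcript's log2(TPM + 1) in each library minus the mean of both EtOH libraries, grouped by role, with EtOH in blue and OHT in red, circles for replicate 1 and squares for replicate 2. The red points lie left of the blue ones for 22 of the 36 genes, and the OHT replicate 2 squares return to or pass the line for genes such as Polr1a, Utp20 and Mybbp1a.

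The promoters of 4 of these genes are printed to show what kind of sequence stands before the start site of the gene with the smallest p (Nop16), of the next one that the RefSeq table holds (Gar1), of the most abundant one it holds (Nop58), and of the single gene above 0 (Nop14). Each is the 250 bases before the annotated start (RefSeq, GRCm38.p6), 5′ to 3′ on the gene's strand. Capitals mark the GC box GGGCGG, the ETS core CCGGAA and the E-box CACGTG, or their reverse complements. The E-box is the sequence bound by MYC and its partners, known regulators of ribosome biogenesis, the ETS core is bound by ETS-family factors and the GC box by SP-family factors.
Nop16: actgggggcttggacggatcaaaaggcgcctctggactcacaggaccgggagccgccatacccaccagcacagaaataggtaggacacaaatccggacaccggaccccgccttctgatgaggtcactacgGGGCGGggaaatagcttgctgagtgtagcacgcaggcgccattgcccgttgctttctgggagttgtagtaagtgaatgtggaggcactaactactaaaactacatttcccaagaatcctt
Gar1: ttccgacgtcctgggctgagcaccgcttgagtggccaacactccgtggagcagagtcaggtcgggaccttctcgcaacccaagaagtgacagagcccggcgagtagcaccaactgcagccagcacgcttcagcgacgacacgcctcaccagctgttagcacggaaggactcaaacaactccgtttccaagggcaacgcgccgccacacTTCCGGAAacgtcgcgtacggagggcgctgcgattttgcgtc
Nop58: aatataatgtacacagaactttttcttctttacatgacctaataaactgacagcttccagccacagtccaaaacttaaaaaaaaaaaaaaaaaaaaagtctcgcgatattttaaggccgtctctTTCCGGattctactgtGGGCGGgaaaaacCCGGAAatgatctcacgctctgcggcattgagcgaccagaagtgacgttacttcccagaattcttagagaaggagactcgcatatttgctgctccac
Nop14: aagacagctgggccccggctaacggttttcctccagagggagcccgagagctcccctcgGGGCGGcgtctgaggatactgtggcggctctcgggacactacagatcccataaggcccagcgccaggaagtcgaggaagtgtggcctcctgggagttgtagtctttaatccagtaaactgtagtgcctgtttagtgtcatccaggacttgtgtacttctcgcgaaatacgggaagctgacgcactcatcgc
They lie at chr13:54590075-54590324 (minus strand), chr3:129831397-129831646 (minus), chr1:59684756-59685005 (plus) and chr5:34660149-34660398 (minus). In Gar1 the capitals cover 2 ETS cores that overlap on opposite strands. None of these 4 windows holds the E-box, and the Nop14 window resembles that of Nop16 in holding a single GC box and no ETS core.

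Of the 36 genes, 31 had a start site in the RefSeq table, with 39 windows in all. The E-box stood in 2 windows (5.13%), those of Utp18 and Nop2, against 8.51% of the windows of genes tested and 6.02% of all windows. The ETS core stood in 12 (30.8%, against 22.1% of windows of genes tested and 12% of all) and the GC box in 25 (64.1%, against 58.3% and 32.7%). The median window of the 31 genes held 16 CpG, as did that of the genes tested, beside 6 in all windows. These are letter matches in a short window and say nothing of binding.

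In the RNA polymerase I group, the second-largest subunit gave the lowest ratio (gene positions are those of GENCODE, GRCm38). Polr1b (chromosome 2, 129100995 to 129126594, plus strand), which forms the catalytic centre together with Polr1a, read 57.2 and 60.2 TPM in the controls, against 36.9 and 49.2 TPM in the treated libraries. Both OHT values were lower, the first far more than the second, and in log2 fold change this was -0.45 (SE 0.16), with an adjusted p by limma of 0.429. Polr1a, the largest subunit, read 82.8 and 93.7 TPM in the controls, against 68.9 and 102 TPM in the treated libraries, so its OHT libraries stood on either side of the EtOH pair. Polr1c, a subunit shared with RNA polymerase III, was lower in both OHT libraries (173 and 168 against 156 and 142 TPM, log2 fold change -0.19, SE 0.10).

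Ubtf, the factor that coats active ribosomal DNA and the most abundant transcript of this group, read 186 TPM in each control, against 148 and 190 TPM in the treated libraries. The second OHT library was no lower than the controls, and the log2 fold change was -0.14 (SE 0.14, limma adjusted p = 0.776). Over the 4 genes of the polymerase I group the median log2 fold change was -0.17, with -0.34 for OHT replicate 1 and -0.11 for OHT replicate 2 when set singly against the control mean.

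Among the nucleolar scaffold and regulator genes, Npm1 gave the tightest difference. The controls averaged 6673.3 ± 37.6 TPM and the treated libraries 5931.8 ± 50.3 TPM (SD, n = 2 each), 11.1% lower, and the groups did not overlap. In log2 fold change this was -0.17 (SE 0.08), with an adjusted p by limma of 0.518. With each library's trend in length and GC content removed, as described below, the log2 fold change of Npm1 was -0.07 (SE 0.08, limma adjusted p = 0.641). Npm1 made up between 43.2% and 44.7% of the TPM summed over the 36 in each library. Without it the sum of the other 35 was 9.68% lower with OHT.

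In the rest of this group the OHT libraries differed from each other. Nolc1, which encodes a chaperone of snoRNPs, read 276 and 284 TPM in the controls, against 212 and 271 TPM in the treated libraries. Ncl, which encodes the RNA-binding protein nucleolin, read 715 and 744 TPM in the controls, against 634 and 745 TPM in the treated libraries. For both genes the first OHT library was the low one, and for Ncl the second matched the controls.

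The same held for the nucleostemin gene Gnl3 (307 and 310 against 272 and 310 TPM) and the RNA helicase gene Ddx21 (251 and 266 against 209 and 273 TPM). Mybbp1a, a nucleolar regulator of transcription, read 317 and 341 TPM in the controls, against 276 and 381 TPM in the treated libraries, low in the first OHT library and highest of all 4 in the second. OHT replicate 1 had a median of -0.23 over the 6 genes, and OHT replicate 2 had 0.02.

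The box C/D snoRNP, which places 2′-O-methyl groups on ribosomal RNA, was the only role group whose 4 members all had both OHT libraries below both EtOH libraries (19.4% of all genes, 29.3% of those of like level). Fbl encodes its methyltransferase fibrillarin (chromosome 7, 28169710 to 28179269, plus strand) and read 568 and 560 TPM in the controls, against 503 and 460 TPM in the treated libraries. Its log2 fold change was -0.23 (SE 0.09, limma adjusted p = 0.454). Nop58, a core scaffold of the particle, read 1297.3 and 1173.9 TPM in the controls, against 1161.4 and 1058.8 TPM in the treated libraries (log2 fold change -0.15, SE 0.10, limma adjusted p = 0.648). For Nop58 the gap between the groups was narrow, since its lower EtOH library lay just above its higher OHT library.

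Nop56, the partner scaffold, was lower in both OHT libraries (629 and 595 against 568 and 514 TPM), as was Rrp9 (179 and 176 against 163 and 153 TPM), a protein of the U3 particle that guides early cuts of the precursor. In each of these 4 genes the second OHT library was the lower of the pair, the reverse of what most others showed. Transcripts of 2 other genes match Fbl closely, at up to 99.6% identity. Of these 2 genes, 1 is in the expression table, Tulp4, and it read at most 5.96 TPM. Summed over Fbl and Tulp4, the log2 fold change was -0.23 as well.

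In the box H/ACA snoRNP, which converts uridines to pseudouridines, the members differed among themselves. Gar1, which binds the catalytic subunit of the particle (chromosome 3, 129824912 to 129831396, minus strand), read 167 and 165 TPM in the controls, against 135 and 141 TPM in the treated libraries, or -0.26 in log2 fold change (SE 0.09; adjusted p by limma 0.425). Dkc1, the pseudouridine synthase dyskerin, read 308 and 331 TPM in the controls, against 271 and 290 TPM in the treated libraries. Both genes were lower in both OHT libraries, in each of which they lay at least 0.14 below the EtOH mean on the log2 scale.

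Their partners Nhp2 and Nop10 overlapped between the groups. Nhp2, the most abundant of the 4, read 470 and 439 TPM in the controls, against 472 and 388 TPM in the treated libraries (log2 fold change -0.08, SE 0.12, limma adjusted p = 0.860). Nop10 read 232 and 226 TPM in the controls, against 228 and 215 TPM in the treated libraries. Whether Gar1 and Dkc1 differ from Nhp2 and Nop10 in their response was not tested.

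Small subunit assembly was represented by 11 genes, of which 10 were below 0 and 7 had both OHT libraries below both EtOH libraries (19.4% of all genes, 29.3% of those of like level; median -0.17). Utp18, a protein of the processome that forms on the young precursor (chromosome 11, 93859243 to 93885766, minus strand), read 105 and 104 TPM in the controls, against 88.4 and 88.3 TPM in the treated libraries. The replicates of each group nearly coincided, with a log2 fold change of -0.24 in each OHT library against the EtOH mean (SE 0.10, limma adjusted p = 0.473). Emg1, the most abundant of the 11 and a methyltransferase of small subunit RNA, read 345 and 346 TPM in the controls, against 322 and 292 TPM in the treated libraries (log2 fold change -0.17, SE 0.09, limma adjusted p = 0.592).

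Heatr1, Wdr43, Wdr75 and Utp15 belong to a subcomplex that binds the precursor first and is tied to polymerase I transcription. Wdr43 read 166 and 175 TPM in the controls, against 130 and 152 TPM in the treated libraries, and Wdr75 read 125 TPM in each control, against 87.3 and 117 TPM in the treated libraries. Heatr1 read 119 and 113 TPM in the controls, against 90.7 and 112 TPM in the treated libraries. Utp15 read 41.4 and 41.5 TPM in the controls, against 35.8 and 42.1 TPM in the treated libraries, so it alone of the 4 overlapped, and in all 4 the first OHT library was the lower.

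Among factors of later steps, Nob1 and Bysl gave small differences that were alike in both OHT libraries. Nob1, the endonuclease that makes the last cut of small subunit RNA, read 160 and 161 TPM in the controls, against 141 and 147 TPM in the treated libraries. Bysl, the assembly factor bystin, read 59 and 58.3 TPM in the controls, against 52.1 and 53.5 TPM in the treated libraries. Rrp12 was low in the first OHT library alone (33.1 TPM, beside 44 in the second and 43.9 and 46.5 with EtOH).

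The processome genes Nop14 and Utp20 stood apart from the others. Nop14 read 116 and 123 TPM in the controls, against 111 and 132 TPM in the treated libraries, or 0.02 in log2 fold change (SE 0.12; adjusted p by limma 0.967), which turned to -0.01 under median of ratios scaling. Utp20 read 62.5 and 77 TPM in the controls, against 55.6 and 84.1 TPM in the treated libraries, the widest EtOH gap of the 36 at 20.8% of the mean.

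Large subunit assembly held 3 of the 7 genes with an unadjusted p under 0.05, and 5 of its 7 members had both OHT libraries below both EtOH libraries (19.4% of all genes, 29.3% of those of like level; median -0.19). Nop16, a nucleolar factor of large subunit assembly (chromosome 13, 54584185 to 54590090, minus strand), read 97.9 and 100 TPM in the controls, against 75.8 and 79 TPM in the treated libraries. It had the smallest p of all 36, with a log2 fold change of -0.35 (SE 0.10, limma unadjusted p = 0.0131, adjusted p = 0.334). Rrp1b, a nucleolar protein of large subunit maturation (chromosome 17, 32036100 to 32062865, plus strand), read 58.8 and 59.1 TPM in the controls, against 38.9 and 51.2 TPM in the treated libraries (log2 fold change -0.39, SE 0.16, limma adjusted p = 0.468).

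Bop1, Pes1 and Wdr12 form the PeBoW complex, needed to mature large subunit RNA, and their transcripts gave unlike values. Bop1 (chromosome 15, 76452989 to 76477277, minus strand) read 121 TPM in each control, against 94.2 and 101 TPM in the treated libraries (log2 fold change -0.31, SE 0.10, limma adjusted p = 0.370). Wdr12 read 77.9 and 76.6 TPM in the controls, against 61.4 and 74.4 TPM in the treated libraries. Pes1 read 176 and 173 TPM in the controls, against 170 and 178 TPM in the treated libraries, so its groups overlapped and its log2 fold change was -0.00 (SE 0.09). Bop1 was lower in both OHT libraries, Wdr12 mainly in the first, and Pes1 lay below the controls in the first and above them in the second. The difference between the 3 genes was not tested.

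Nop2, an RNA methyltransferase and the most abundant transcript of this group, read 218 and 220 TPM in the controls, against 188 and 224 TPM in the treated libraries (log2 fold change -0.09, SE 0.11, limma adjusted p = 0.830). Rrs1, which helps load the smallest large-subunit RNA, read 109 and 114 TPM in the controls, against 97.6 and 104 TPM in the treated libraries. Only Rrs1 of these had both OHT values below both EtOH values.

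The difference between replicates followed transcript length, more so in the OHT pair than in the EtOH pair. OHT replicate 1 lay below the EtOH mean for 35 of the 36 genes (63.8% of all genes tested) and OHT replicate 2 for 25 (31.4%). The median of the 36 was -0.23 in the first and -0.11 in the second, against -0.09 and 0.14 for all genes tested. Relative to that median of all genes, the nucleolar transcripts were therefore lower in both libraries, by -0.13 and -0.26, and relative to the genes of like level by -0.11 and -0.14.

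Across the 36 genes, the difference between OHT replicate 2 and replicate 1 followed log2 transcript length with Pearson r = 0.78 and Spearman rho = 0.80, and across 12016 genes tested with r = 0.50 and rho = 0.54. In the EtOH pair the same relation had r = 0.55 and rho = 0.47 across the 36 and r = 0.24 and rho = 0.32 across all genes. The log2 fold change followed length with r = 0.16 across the 36 and r = 0.12 across all genes. Genes share their library in each case, so these are descriptions. The 13 genes with a transcript under 2000 nt had a median of -0.13 in OHT replicate 1 and -0.22 in OHT replicate 2, and 10 of them did not overlap (19.4% of all genes lay lower without overlap). The 9 with a transcript over 4000 nt, among them Polr1a, Utp20, Heatr1 and Mybbp1a, had -0.31 and 0.03, and 2 of them did not overlap, a share near that of all genes. Of these 9 long transcripts, 7 thus overlapped between the groups. The part of transcript length in these differences was not tested, beyond the correction that follows.

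With each library's trend in length and GC content removed, the median of the 36 was -0.20, and 35 of them were below 0 (51.6% of all genes). In that fit 19 had an unadjusted p under 0.05, all lower, while 11.9% of all genes were lower at that level, up from 4.46% without the correction. Polr1b passed over all genes (-0.53, limma adjusted p = 0.0446), as did 116 of all genes (0.965%). Ncl is annotated with a transcript of 8202 nt, and whether that form is the main one in these cells was not tested.

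**Figure D3:**
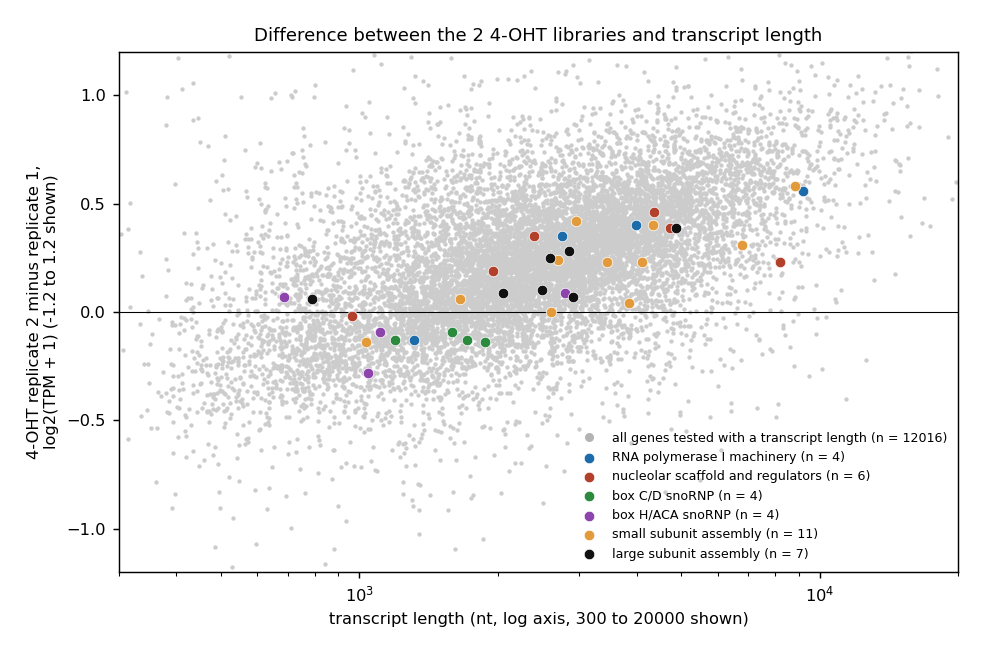
Difference between OHT replicate 2 and replicate 1 in log2(TPM + 1) against transcript length in nt (log axis), with all tested genes in grey and the 36 nucleolar factors coloured by role. Short transcripts such as those of the box C/D group lie below the line and long ones such as Polr1a and Utp20 above it, along the trend of all genes.

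Other genes of the pathway, from 5 lists of 132 genes that are not among the 36, leaned the same way. Of 131 tested, 121 were below 0 (46% of all genes), 76 had both OHT libraries below both EtOH libraries (19.4%) and 1 had both above (23.1%). Their median log2 fold change was -0.16, and 0 passed over all genes by limma, while 21 had an unadjusted p under 0.05, all of them lower (4.46%). The lists were chosen with results of these data known and share their libraries with the 36, so they are no independent support.

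Among 44 small subunit factors 41 were below 0 (median -0.16). The smallest p belonged to Imp4, a U3 particle protein, at 110 ± 3.85 TPM with EtOH and 83.9 ± 14.1 with OHT. Among 51 large subunit factors 46 were below 0 (median -0.15). The smallest p there belonged to Wdr74 at 124 ± 1.08 and 98.2 ± 2.82 TPM, and next to Nip7 at 277 ± 4.93 and 223 ± 12.4 TPM (SD, n = 2 each). All 12 further genes of the polymerase I machinery were below 0 (median -0.15), and the 1 with an unadjusted p under 0.05 was Taf1d, a subunit of the promoter selectivity factor, at 211 ± 6.19 and 174 ± 9.57 TPM. Of 11 further snoRNP proteins and assembly factors, 10 were below 0 (median -0.21), among them Snu13, which binds box C/D RNA, at 256 ± 1.62 and 219 ± 3.93 TPM.

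For the ribosomal proteins, the cargo of this pathway, the direction differed between the OHT libraries. Of 82 cytosolic ribosomal protein genes tested, 5 lay below the EtOH mean in OHT replicate 1 (63.8% of all genes) and 56 in OHT replicate 2 (31.4%), and 16 had a log2 fold change below 0 (46%). In 17 each treated library was above each control (23.1% of all genes), and in 4 each was below (19.4%). Their median was 0.08, and without OHT replicate 1 it was -0.06 and without OHT replicate 2 it was 0.23. None (0) passed over all genes by limma, with 1 (Rps27, lower) at an unadjusted p under 0.05 (4.46% of all genes were lower at that level, 6.02% higher). Rps27 read 56.1 and 31.9 TPM in the controls, against 18.8 and 4.96 TPM in the treated libraries. That is low for this list, whose median level was 2619.3 TPM, and its controls lay far apart. The ribosomal protein genes took 23% and 22.2% of all TPM with EtOH and 26.9% and 21.9% with OHT. As TPM is a share, a larger part for these very abundant, short transcripts in OHT replicate 1 leaves less for all others there, and the part of this in the nucleolar values was not tested. No test of the difference between the nucleolar factors and the ribosomal proteins was run.

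**Figure D4:**
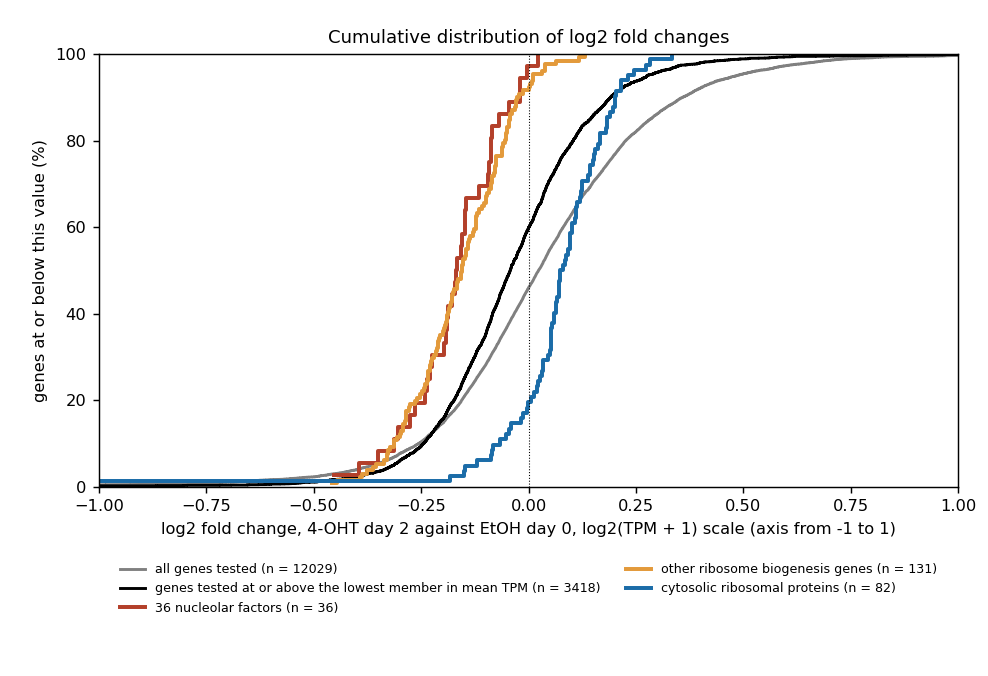
Share of genes (%) at or below each log2 fold change (log2(TPM + 1) scale, OHT against EtOH) for the 36 nucleolar factors, the other ribosome biogenesis genes, the cytosolic ribosomal proteins, all genes tested and the tested genes of like level. The curves of the nucleolar factors and the other biogenesis genes lie to the left, with medians of -0.17 and -0.16, and that of the ribosomal proteins to the right of 0 with a median of 0.08 (-0.06 without OHT replicate 1).

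Several of the nucleolar genes also carry small nucleolar RNA genes within them. In GENCODE 6 of the 36 (16.7%) hold at least 1 annotated snoRNA gene on their own strand, 19 in all, against 1.7% of the genes tested. Nop56 holds 5, Nop58 holds 4, Ncl, Gnl3 and Wdr43 hold 3 each and Dkc1 holds 1. The median log2 fold change of these 6 host genes was -0.17, as was that of the other 30, and after the length and GC correction these medians were -0.14 and -0.21. The difference between host genes and the rest was not tested. The snoRNAs themselves, which are cut from introns and carry no poly(A) tail, were not measured here.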

How the data were processed

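Poly(A) RNA libraries (n = 2 per group, all labelled batch 2) were read from the authors' deposited TPM table. Trim Galore and Salmon with mouse build GRCm38 (mm10) were used, per the submitters' processing notes, without versions. The annotation release, strandedness and bias options were not given in the sources used here. TPM keeps no depth, so no counting interval was computed. The table holds 2 further columns that match no sample used here and were not used.

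The 12029 genes averaging 1 TPM or more over the 4 libraries were analysed as log2(TPM + 1) with limma 3.58.1 in R 4.3.3, with a mean-variance trend, two-sided, Benjamini-Hochberg over all genes, threshold 0.05. An exact permutation test of 2 against 2 cannot go below p = 0.333. The fit was tested on simulated data with independent noise, equally wide in both groups at a given level. That test does not cover the wider spread of the OHT pair. The members and lists were chosen with earlier results of these data known. Full statistics are given for the 6 members with the smallest p in each direction (1 was higher) and the most abundant of each role group; of each further list, up to 3 genes per direction with an unadjusted p under 0.05 could be named. Polr1g was matched as Cd3eap, and 82 of 83 ribosomal protein symbols had a row.

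Coordinates, snoRNA genes, transcript lengths (the shortest transcript with at least 80% of the longest coding sequence) and GC content are from GENCODE mouse release 21 (GRCm38). A blastn 2.17.0 search looked for near-identical copies (95% identity over 50% of a transcript): Fbl, Npm1 and Pes1 had any, and for Npm1 and Pes1 none of them is a gene of the table. Promoters are from RefSeq. The length and GC correction removed natural splines (4 degrees of freedom each) from each library's deviation from the mean. Protein sequences were not analysed here. Alternatives were other pseudocounts, filters, scalings and moderation, a replicate block, the length and GC correction, and leaving out each library.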

Additional observations from a re-analysis of the deposited data

How the results depend on the processing

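Under all 16 alternatives the median of the 36 stayed below 0, and 23 of the 36 kept their sign. The filters, moderation settings and replicate block cannot change a log2 fold change, so they could not turn a sign. For the same reason, the block with the length and GC correction repeats the signs of that correction alone. Genes past the threshold over the whole table numbered 5, and 0 without a filter on low values (1838 at an unadjusted p under 0.05). They numbered 3 under median of ratios scaling, quantile normalization and limma without a trend, and 116 after correction for length and GC. Of the 36, 0 passed, and 1 after that correction. At an unadjusted p under 0.05 stood 7, all lower (4.46% of all genes were lower, 10.5% in either direction). Without a trend 2 stood there, both lower (3.72% of all genes lower, 10.8% in either direction). After that correction 19 did, all lower (11.9% of all genes lower, 21.9% in either direction). Leaving out each library gave 34 to 2957 genes past the threshold, the most without OHT replicate 1. Of the 36, 0 to 22 passed (13 without OHT replicate 1, of which 1 was higher, 22 without OHT replicate 2). Of the other biogenesis genes 0 to 59 passed, the most without OHT replicate 2. An unadjusted p under 0.05 was reached by 0 to 26 of the 36 and by 2.47% to 42.8% of all genes. These upper ends come from different fits and are not a pair: 26 without OHT replicate 2, and 42.8% without OHT replicate 1. With 1 OHT library left out, the spread comes from the EtOH pair alone and the lone library is assumed to vary like it. Far more of all genes tested passed in these fits than with all libraries kept. The counts for the 36 and for the other biogenesis genes there are therefore not evidence of a stronger difference. The 6 that were lower past the threshold both without OHT replicate 1 and without OHT replicate 2 were Bop1, Fbl, Gar1, Nop16, Npm1 and Utp18 (16.7% of the 36, against 367 or 3.05% of all genes; both fits share the EtOH pair). Without OHT replicate 2, 35 of the 36 were below 0 (63.8% of all genes), and without OHT replicate 1, 25 were (31.4% of all genes). The median of the 36 ran from -0.23 without OHT replicate 2 (-0.09 for all genes tested) to -0.11 without OHT replicate 1 (0.14 for all genes tested).

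The replicate numbers pair the samples by number alone: same-numbered deviations correlated at 0.29 over genes, with only 2 pairs. A replicate block gave 474 genes past the threshold, 0 of the 36 and 1 other biogenesis gene. The block together with the length and GC correction gave 445 genes past the threshold (3.7% of all genes, 1.92% lower). Of the 36, 4 passed (Polr1b, Bop1, Nop16 and Rrp1b), as did 10 other biogenesis genes, all of them lower. At an unadjusted p under 0.05 stood 19 of the 36, all lower, against 13.5% of all genes lower and 25.2% in either direction.

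Signs turned under quantile normalization for Mybbp1a (0.06), Utp20 (0.01), Pes1 (0.05) and Nop10 (0.00), and under median of ratios scaling for Nop14 (-0.01). With a library left out, Polr1a ranged from -0.35 to 0.21, Utp20 from -0.31 to 0.27, Mybbp1a from -0.25 to 0.21, Ubtf from -0.32 to 0.03, Ncl from -0.20 to 0.03, Gnl3 from -0.18 to 0.01, Ddx21 from -0.31 to 0.08, Nhp2 from -0.22 to 0.06, Utp15 from -0.21 to 0.02, Nop14 from -0.10 to 0.14, Pes1 from -0.04 to 0.03 and Nop2 from -0.22 to 0.03. The scaffold group's median ranged from -0.23 to 0.02 and that of the ribosomal proteins from -0.06 to 0.23. The cause of these turns was not tested.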

Other observations

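The RNA exosome trims the tails and spacers of ribosomal RNA precursors in the nucleolus and degrades other nuclear RNA. Its genes leaned lower, and they are already counted among the other genes of the pathway above. Their list, too, was chosen with results of these data known and is no independent support. Of 13 genes tested, 12 were below 0 (46% of all genes), 10 had each treated library below each control (19.4%), and the median log2 fold change was -0.24, alike in OHT replicate 1 (-0.27) and OHT replicate 2 (-0.24). None passed over all genes by limma, and 6 had an unadjusted p under 0.05, all lower (4.46%). Exosc2, an RNA-binding cap subunit, stood at 149 and 152 TPM in the controls, against 115 and 104 TPM in the treated libraries (log2 fold change -0.46, SE 0.10, limma adjusted p = 0.266). Exosc8 averaged 84.1 ± 3.53 TPM in the controls, against 64.6 ± 3.35 TPM in the treated libraries, and Exosc5 read 134 ± 0.863 and 108 ± 0.477 TPM (SD, n = 2 each). The difference between the exosome genes and the 36 nucleolar factors was not tested.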
